A study of Mus musculus with 8 samples.

Results

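The respiratory chain genes described here were the 99 genes of the deposited count table whose symbols name subunits of the 5 complexes of oxidative phosphorylation, out of 32285 genes in all. The rule that picked them used symbols alone but was set with earlier results of these data known. It took names starting with Nduf other than the Ndufaf assembly factors, Uqcr or Atp5, and the Cox4 to Cox8 subunits. It also took Sdha, Sdhb, Sdhc and Sdhd, and the mitochondrial mt-Nd, mt-Co, mt-Cytb and mt-Atp genes. Of the 99 genes, 86 were nuclear genes and 13 were carried on the mitochondrial genome. By complex, the nuclear members split into 37 of complex I, 4 of complex II, 8 of complex III, 20 of complex IV and 17 of complex V, and the mt members into 7, 0, 1, 3 and 2.

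Complexes I to IV pass electrons from NADH and succinate to oxygen, complexes I, III and IV pump protons across the inner mitochondrial membrane, and complex V, the ATP synthase, uses the returning protons to make ATP. Complexes I, III, IV and V are assembled from subunits of both genomes, whereas complex II is nuclear throughout, so the 2 sets of transcripts are made by different polymerases in different compartments and meet as proteins. In T cells and macrophages, the use of this pathway against glycolysis is known to shift with activation state.

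The data came from single-cell RNA sequencing of living CD45+ cells sorted out of subcutaneous grafts of NIT-1, an insulin-producing beta cell line of the NOD mouse, in immunodeficient NOD.scid hosts, which lack their own T and B cells but keep their myeloid and NK cells. The grafts were either WT NIT-1 cells or NIT-1 cells mutant for Rnls (Rnlsmut), each host carried 1 graft of each genotype, and all hosts received splenocytes of recently diabetic NOD mice, so that the genotype is that of the beta cells and not of the immune cells that were sequenced. Grafts were taken at day 10 or day 17 after the transfer, 4 grafts of each genotype at each day, 16 in all, and each was marked by a hashtag antibody. The 4 grafts of 1 genotype and day were pooled into 1 droplet library, so genotype or day and library cannot be told apart in any comparison below. The labels do not tie a hashtag number to a host, the age of the hosts is not given in the sources used here, and p-values measure the spread between grafts within these libraries.

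The table held 22441 cells, 350 to 1967 cells and 1742746 to 9729233 unique molecular identifiers (UMIs) per graft, and the median cell had 3520 UMIs. The highest mitochondrial share of any cell was 9.74%, and 42 of 22399 cell barcodes occurred in more than 1 library. UMIs per cell of all CD45+ cells were 52.6% higher at day 17 than at day 10 in WT grafts and 21.5% lower in Rnlsmut grafts, in both cases without overlap between grafts. Levels are counts of UMIs per 1000000 UMIs of the same cells (CPM), from an assay that tags the 3′ ends of transcripts and so needs no division by gene length. Within a cell type, fewer transcripts of a gene per cell and a larger total of other transcripts cannot be told apart on this scale. The 12 deposited cell types were used as given. Of their defining markers, Cd3e, C1qa, Foxp3 and Ncr1 were high in the named types (Cd3e at 966 CPM in CD4 T cells and 1.7 in macrophages, C1qa at 2072 in macrophages and 28.4 in CD4 T cells, Foxp3 at 303 in regulatory T cells (Treg) and 1.0 in other CD4 T cells, Ncr1 at 444 in NK cells and 671 in ILC-1). Others were less distinct: Ccr2 was at 271 in monocytes but at 584 in Treg and 320.0 in CD8 T cells, Cd3d was at 146 in NK cells, and the cells named Stem-Progenitor, which were not tested, had Cd3e at 473 and Top2a at 922. The labels name the samples as beta cells, and of 4 beta cell markers Ins1 and Iapp were at 0 UMIs in all cells, Chga at 2 and Ins2 at 31, of which 24 lay in the Stem-Progenitor cells.

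Sequences are given for 4 members on which later results turn. Cox8a, the most abundant nuclear member, and Atp5k are given by promoter. Atp5k was the nuclear member that fell in the largest number of tested cell types in WT grafts. mt-Atp8 and mt-Nd4l are given by gene. These 2 mitochondrial members set 1 library apart in 6 and 2 of 7 tested cell types. The promoters are 300 bases of the gene's strand from RefSeq (GRCm38.p6), from 250 bases before to 50 after the start: chr19:7217567-7217866 on the minus strand for Cox8a and chr5:108434350-108434649 on the minus strand for Atp5k. Capitals mark letters of binding motifs of NRF1 (GCGCATGCG) and of the GABP/ETS factors (CCGGAAG, here read as its reverse complement), regulators known from many respiratory chain promoters.
Cox8a promoter: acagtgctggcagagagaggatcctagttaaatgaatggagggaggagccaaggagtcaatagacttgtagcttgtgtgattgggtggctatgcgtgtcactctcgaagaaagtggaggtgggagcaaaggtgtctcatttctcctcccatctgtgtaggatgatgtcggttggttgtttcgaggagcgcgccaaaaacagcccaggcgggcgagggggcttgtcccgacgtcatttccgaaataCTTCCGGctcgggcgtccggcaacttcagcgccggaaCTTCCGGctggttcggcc
Atp5k promoter: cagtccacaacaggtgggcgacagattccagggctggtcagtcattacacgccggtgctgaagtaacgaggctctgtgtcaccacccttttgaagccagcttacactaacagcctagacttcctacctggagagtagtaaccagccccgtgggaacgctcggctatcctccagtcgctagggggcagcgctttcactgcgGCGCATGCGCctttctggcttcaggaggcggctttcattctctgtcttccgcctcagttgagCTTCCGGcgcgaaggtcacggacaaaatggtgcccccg
The mitochondrial genes lie on the plus strand at chrM:7766-7969 (mt-Atp8, 204 bases) and chrM:9877-10173 (mt-Nd4l, 297 bases) of GRCm38. Both are known to share a 2-gene messenger RNA with the gene downstream, and capitals mark the bases that belong to both reading frames, 43 bases shared with mt-Atp6 (21.1% of mt-Atp8) and 7 shared with mt-Nd4.
mt-Atp8: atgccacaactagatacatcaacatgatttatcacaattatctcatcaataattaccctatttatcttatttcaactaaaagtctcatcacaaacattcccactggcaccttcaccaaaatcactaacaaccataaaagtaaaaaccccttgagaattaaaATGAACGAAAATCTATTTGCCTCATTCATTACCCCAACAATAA
mt-Nd4l: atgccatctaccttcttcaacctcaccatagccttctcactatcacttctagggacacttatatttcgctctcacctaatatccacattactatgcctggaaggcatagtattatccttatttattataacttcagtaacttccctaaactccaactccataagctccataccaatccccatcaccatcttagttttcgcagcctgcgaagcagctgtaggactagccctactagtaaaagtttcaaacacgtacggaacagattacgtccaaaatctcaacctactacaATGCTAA

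Of the 86 nuclear members, 70 had a promoter entry, 2 of them under an older symbol. On either strand, the GABP/ETS letters stood in 16 of the 70 (22.9%, against 9.12% of all 27025 promoters of the same length). The NRF1 letters stood in 8 (11.4% against 1.81%), which were those of Atp5g2, Atp5k, Atp5l, Cox6a1, Ndufa11, Ndufa8, Uqcr11 and Uqcrc1. The letters of YY1 (AAGATGGCG) stood in 6 (8.57% against 1.49%) and those of the estrogen-related receptors (TCAAGGTCA) in 2, Atp5g3 and Sdhd (2.86% against 0.407%). Atp5k carried the NRF1 letters on both strands, at overlapping positions 50 and 49 bases before the start, and Cox8a carried the GABP/ETS letters at 2 places on the opposite strand. These matches are letters in a window and no measure of binding.

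Transcript levels differed widely among the members. Over all CD45+ cells, Cox8a, a small subunit of complex IV, had 134765 UMIs (1320 CPM), followed by the complex V subunits Atp5e with 105073 (1030 CPM) and Atp5l with 81682 (800 CPM). Summed by complex, nuclear complex V members made up 7386 CPM, complex IV 7065, complex I 6398, complex III 2369 and complex II 327. On the mitochondrial genome, the 3 complex IV members made up 6269 CPM against 2540 for the 7 complex I members, 2020 for the 2 complex V members and 820 for mt-Cytb.

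Several subunits exist as a common and a tissue- or condition-restricted form, and the restricted forms were rare in these cells. Cox4i2, the hypoxia-linked form of Cox4, had 53 UMIs in all cells against 80385 for Cox4i1. Cox6a2, the heart and muscle form, had 564 against 23875 for Cox6a1, and 505 of the 564 lay in dendritic cells (DC). Cox7a1 had 743, of which 476 lay in macrophages, against 53208 for Cox7a2. Ndufa4l2 had 49, of which 47 lay in macrophages, against 39286 for Ndufa4. Cox6b2 had 332 against 54846 for Cox6b1, Cox7b2 had 2 against 33579 for Cox7b, and Cox8b and Cox8c were at 0 beside Cox8a. The 3 genes that encode the same mature c subunit of complex V, Atp5g1, Atp5g2 and Atp5g3, were all present, with 20133, 53307 and 26344 UMIs.

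Summed over members, the nuclear and the mitochondrial transcripts ranked the cell types differently. NK cells had the lowest nuclear sum in 13 of 16 grafts, with a mean of 16654 ± 1329 CPM (SD over 16 grafts). Monocytes had the highest in 10 of 15 grafts (26147 ± 4979), ahead of macrophages (24089 ± 4775) and DC (23688 ± 3819), whose ranges over grafts overlapped with those of monocytes and of each other. CD4 T cells (20013 ± 2599), Treg (19635 ± 2713, 14 grafts) and CD8 T cells (19367 ± 1123) lay between. Their means over both days differed by less than these SDs, which include the change between days. Within a day CD4 and CD8 T cells did separate, by the graft values given below. At day 10 CD4 T cells were above CD8 T cells in every graft. At day 17 CD8 T cells were above CD4 T cells in all Rnlsmut grafts and in some WT grafts. At day 10, macrophages, monocytes and DC were above CD4 T cells, CD8 T cells and NK cells in 8 of 8 grafts. At day 17 macrophages were above CD4 T cells in 7, CD8 T cells in 5 and NK cells in 7 of 8 grafts. The mitochondrial sum had another order: it was highest in macrophages in 11 of 16 grafts (12621 ± 1810), similar in NK cells (11612 ± 853) and CD4 T cells (11590 ± 576), and lowest in Treg in 11 of 14 grafts (8044 ± 663). Over both days together, NK cells therefore had the largest mean mitochondrial to nuclear ratio, 0.702 ± 0.0819, highest in 12 of 16 grafts. The ratio of macrophages was higher at day 17, as given below, so this order need not hold within each day. Granulocytes, which had 10 or more cells in 12 grafts and were not tested, had nuclear sums of 6230 to 13952 and mitochondrial sums of 377 to 2984.

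**Figure D1:**
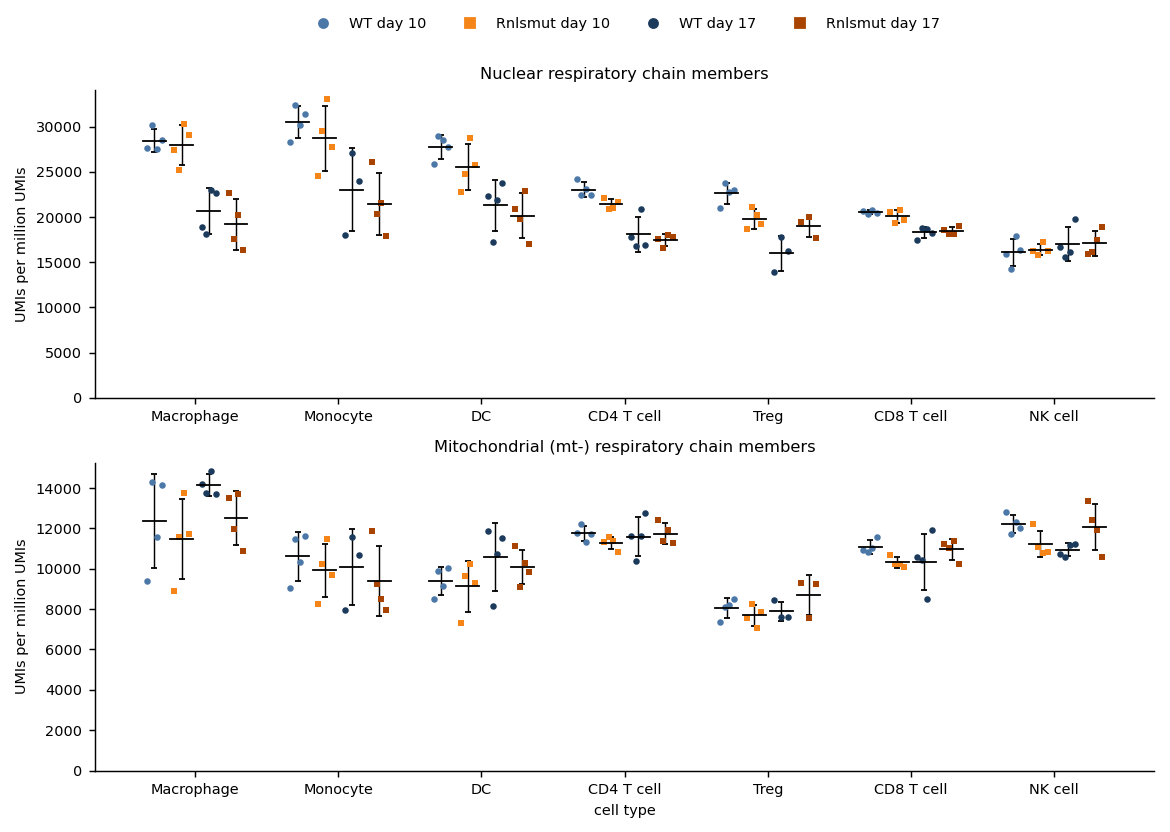
Summed CPM of nuclear (top) and mitochondrial (bottom) respiratory chain members, by cell type. Each point is 1 graft, bars are the mean and SD of a group, blue circles are WT and orange squares Rnlsmut grafts, and the dark shade is day 17. The nuclear sums of macrophages at day 17 lie below those of day 10 in both genotypes, while the nuclear sums of NK cells and the mitochondrial sums of macrophages overlap.

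The first comparison asked how the members changed between day 10 and day 17 after the transfer. In macrophages the nuclear sum of WT grafts was 27661, 30208, 27513 and 28485 CPM at day 10 and 18919, 18081, 23031 and 22625 at day 17, a difference of -27.4% between the means. The Rnlsmut grafts had 27417, 25172, 30284 and 29136 at day 10 and 22653, 17605, 20283 and 16348 at day 17, a difference of -31.4%. All grafts of day 17 lay below all grafts of day 10 in either genotype. The mitochondrial sum did not follow: it was 9407, 14293, 11566 and 14143 in WT grafts at day 10 against 14212, 13766, 14861 and 13700 at day 17, and 8890, 11587, 13753 and 11708 in Rnlsmut grafts at day 10 against 13494, 11992, 13702 and 10856 at day 17. These ranges overlapped, and the ratio of mitochondrial to nuclear UMIs was 59.7% higher at day 17 in WT and 59.5% higher in Rnlsmut grafts without overlap. UMIs per macrophage moved in opposite directions over the same days, by 33.3% in WT and -38.4% in Rnlsmut grafts, while the nuclear sum was lower in both.

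Gene by gene, the same macrophages showed a fall across the nuclear members. UMIs were summed per graft, and all genes that passed a filter on low counts were fitted together in edgeR by quasi-likelihood. P-values were adjusted after Benjamini and Hochberg across the genes of a cell type, and 0.05 was the threshold. Of 79 nuclear members that passed the filter in macrophages, 67 fell and none rose in WT grafts, where 13.1% of all 9331 genes tested fell. In Rnlsmut grafts 70 fell and none rose, where 21.4% of all genes fell. The median log2 fold change of the nuclear members was -0.59 in WT and -0.67 in Rnlsmut grafts, beside 0.03 and 0.02 over all genes tested. By complex, 34 and 35 of 37 members of complex I fell in WT and Rnlsmut grafts, 6 and 6 of 8 of complex III, 11 and 10 of 13 of complex IV, and 15 and 17 of 17 of complex V, with medians between -0.46 and -0.76.

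Complex IV gave large changes in macrophages. Cox5b, a zinc-binding subunit, was at 663, 694, 668 and 680.0 CPM in WT grafts at day 10 and at 398, 366, 426 and 473 at day 17 (log2 fold change -0.87 ± 0.12 SE, edgeR adjusted p = 0.00015). In Rnlsmut grafts it was at 702, 557, 719 and 754 at day 10 and at 415, 313, 378 and 308 at day 17 (-1.08 ± 0.12, edgeR adjusted p = 8.2e-06). Its groups did not overlap between days in either genotype. Cox5a, its neighbour in the complex, fell by 0.99 ± 0.15 on the log2 scale in WT and by 1.11 ± 0.15 in Rnlsmut grafts. Cox8a went from 1663 to 1915 at day 10 to 926 to 1359 at day 17 in WT grafts and from 1519 to 1938 to 958 to 1304 in Rnlsmut grafts.

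In complex V, Atp5b, the catalytic beta subunit, was at 400.4, 497, 403 and 418 CPM in macrophages of WT grafts at day 10 and at 272, 279.6, 299.7 and 289 at day 17. The Rnlsmut grafts were at 454, 418, 503 and 497 at day 10 and at 267, 227, 276 and 217 at day 17, the latter with a log2 fold change of -1.05 ± 0.11 (edgeR adjusted p = 4.7e-06). Every graft of day 17 lay below every graft of day 10. Atp5k, the e subunit of the membrane part, fell by 1.20 ± 0.14 in WT grafts (edgeR adjusted p = 4.2e-05) and by 0.76 ± 0.14 in Rnlsmut grafts. Of the 3 genes for the c subunit, Atp5g1 fell by 0.77 and 0.91 and Atp5g3 by 0.63 and 0.81 in WT and Rnlsmut grafts, whereas Atp5g2 passed in Rnlsmut grafts only (-0.38 ± 0.13, adjusted p = 0.023, against -0.32 ± 0.13, adjusted p = 0.076, in WT grafts).

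In complex I, Ndufa12, an accessory subunit of the matrix arm, was at 96.7, 91.8, 105 and 91.6 CPM in macrophages of WT grafts at day 10 and at 43.2, 48.5, 58.1 and 47.8 at day 17 (log2 fold change -1.12 ± 0.13, edgeR adjusted p = 4.1e-05). Its Rnlsmut grafts were at 63.7, 77.6, 58.2 and 89.7 at day 10, each below every WT graft of that day, and at 51.1, 44.0, 42.5 and 39.2 at day 17. Ndufab1, the mitochondrial acyl carrier protein, was at 193, 162, 169 and 173 in Rnlsmut grafts at day 10 and at 105, 83.7, 106 and 92.9 at day 17 (-0.98 ± 0.10, edgeR adjusted p = 3.8e-06). Ndufs1, the largest subunit of the core, passed in no tested cell type in either genotype and stood at log2 fold changes of 0.30 ± 0.20 and -0.11 ± 0.20 in macrophages. In complex III, Uqcrq was at 637, 635, 629 and 633 in WT grafts at day 10 and at 395, 389, 489 and 432 at day 17 (-0.74 ± 0.13), with no overlap.

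Complex II split. Sdhb, its iron-sulfur subunit, was at 259, 303, 250.4 and 283 CPM in WT macrophages at day 10 and at 157, 143, 153 and 177 at day 17 (log2 fold change -0.97 ± 0.14, edgeR adjusted p = 0.00015), and it fell by 1.02 ± 0.14 in Rnlsmut grafts. Sdha, the flavoprotein subunit that oxidizes succinate, was at 68.2, 62.3, 63.9 and 76.1 in WT grafts at day 10 and at 75.5, 50.8, 85.8 and 74.3 at day 17 (-0.06 ± 0.14). In Rnlsmut grafts Sdha was at 60.9, 58.8, 65.2 and 63.3 at day 10 and at 91.7, 75.7, 78.9 and 62.2 at day 17 (0.20 ± 0.14). Its days overlapped in both genotypes. Sdhc did not pass in either genotype (-0.27 in both), and Sdhd passed in Rnlsmut grafts (-0.62 ± 0.18) but not in WT grafts (0.24 ± 0.18).

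**Figure D2:**
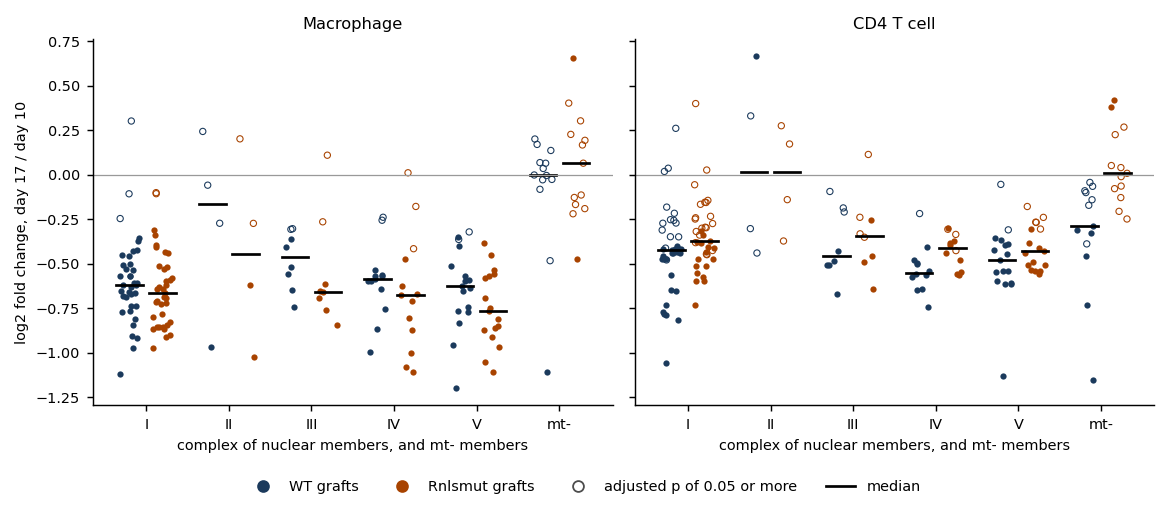
Log2 fold change from day 10 to day 17 of each respiratory chain member in macrophages (left) and CD4 T cells (right), by complex for nuclear members and with the mt members as a last column. Each point is 1 gene, filled where the edgeR adjusted p was below 0.05, blue for WT and brown for Rnlsmut grafts, and black lines are medians. In complex V of macrophages 15 (WT) and 17 (Rnlsmut) of 17 genes passed below 0. The mt medians are -0.00 and 0.07 in macrophages and -0.29 (WT) and 0.01 (Rnlsmut) in CD4 T cells.

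Among the 13 mt members, 1 fell in macrophages of WT grafts and 1 rose and 1 fell in those of Rnlsmut grafts, and the medians were -0.00 and 0.07. Of all genes in these macrophages, 13.1% fell in WT grafts, and 21.4% fell and 20.7% rose in Rnlsmut grafts. The shares of the mt members were below these. mt-Co1, the catalytic subunit of complex IV, was at 2198, 3149.5, 2581 and 3052 CPM in WT grafts at day 10 and at 3197, 2667, 4531 and 3558 at day 17, and at 2037, 2717, 3078 and 2683 against 3753, 3056, 3835 and 2833 in Rnlsmut grafts. The days of mt-Co1 thus overlapped in both genotypes, where Cox5b and Cox8a of the same complex did not. mt-Nd3, a small complex I subunit, was at 75.1, 90.8, 134 and 103 in Rnlsmut grafts at day 10 and at 187, 181, 169.6 and 144 at day 17 (log2 fold change 0.66 ± 0.16, edgeR adjusted p = 0.0037). mt-Cytb, a heme subunit of complex III, fell in Rnlsmut grafts (-0.47 ± 0.18, edgeR adjusted p = 0.043), with overlapping grafts. The fall in WT grafts was that of mt-Atp8, which is described with the WT day 10 library below.

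The macrophages of the 2 days were largely different clusters, and this moved with the fall. Clusters 4 and 13 of the deposited clustering held 54.2% and 25.4% of WT macrophages at day 10 but 8.28% and 1.38% at day 17, and 70.9% and 17.3% of Rnlsmut macrophages at day 10 but 5.07% and 0.649% at day 17. Clusters 2 and 5 held 28.4% and 30.1% at day 17 in WT and 38.1% and 31.8% in Rnlsmut grafts. Within cluster 5, the only macrophage cluster with enough cells for a fit in all groups, the nuclear sum differed by -9.95% in WT and -17.5% in Rnlsmut grafts with overlapping grafts. In an edgeR fit of that cluster, added after seeing the data, 0 of 68 nuclear members fell in WT grafts (2 at an unadjusted p under 0.05, and 2.70% of 2520 genes tested fell) and 2, Ndufa4 and Cox5a, in Rnlsmut grafts (6.27%), and the medians were -0.14 and -0.12. Cluster 5 had 105 WT and 77 Rnlsmut cells at day 10, which limits what this fit can call. Within cluster 4, the nuclear sum was 20.6% lower at day 17 in WT grafts without overlap, from 2 grafts at day 17, and 12.9% lower in Rnlsmut grafts with overlap. Within cluster 2 it was 27.6% lower in WT grafts without overlap, and no Rnlsmut graft had 10 of its cells at day 10. Within cluster 12 the nuclear sum differed by -22.8% in WT grafts without overlap, from 2 grafts at each day. In Rnlsmut grafts cluster 12 differed by -27.4%, from 1 graft at day 10. Cluster 10 differed by -26.3% in WT grafts, from 1 graft at day 10, and cluster 13 by -3.50%, from 1 graft at day 17. The part of the shift between clusters in the fall over all macrophages was not tested.

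**Figure D3:**
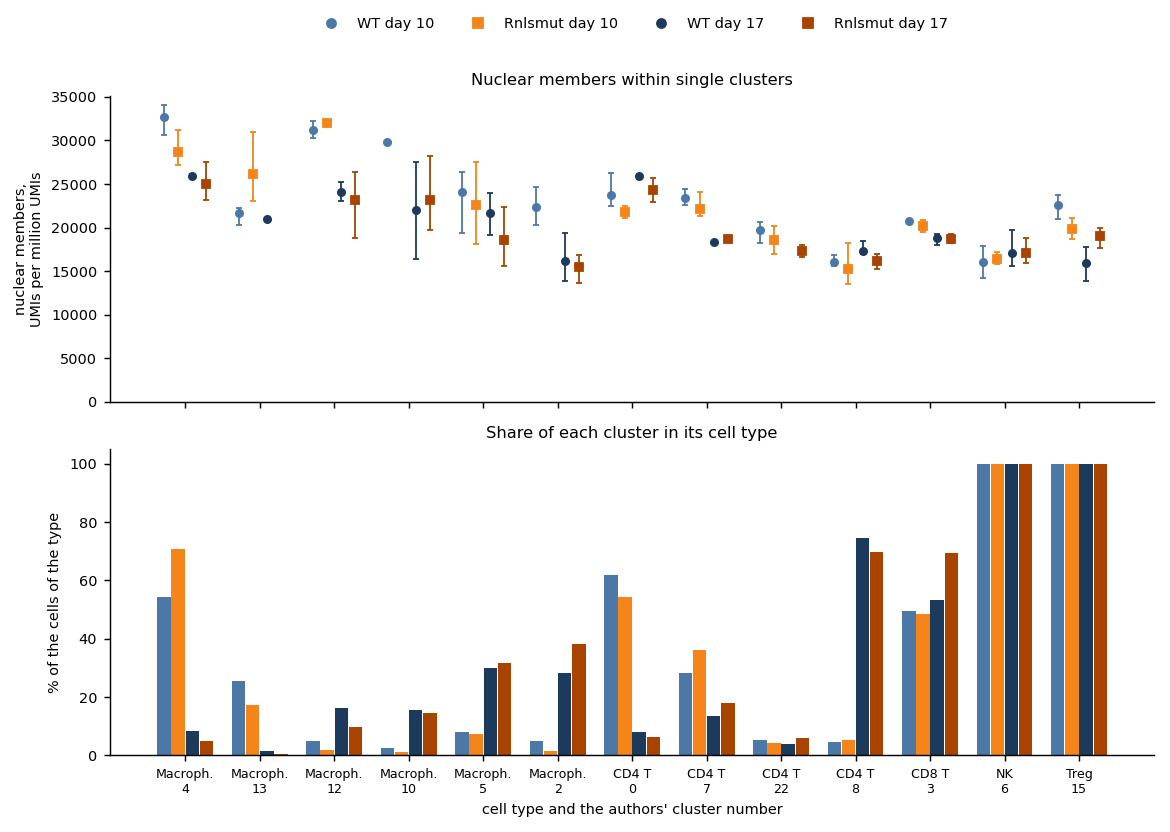
Nuclear members within single clusters of the deposited annotation (top, mean over grafts with the lowest and highest graft as bars, CPM; groups with no graft of 10 cells are left out) and the share of each cluster in the cells of its type (bottom, percent). Macrophage cluster 4 falls from 54.2% to 8.28% and CD4 T cell cluster 8 rises from 4.54% to 74.5% of their types in WT grafts.

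CD4 T cells had the second largest number of changes. Their nuclear sum was 24271, 22421, 23118 and 22409 CPM in WT grafts at day 10 and 17812, 16771, 20872 and 16892 at day 17 (-21.5%), and 22160, 20930, 21037 and 21630 against 17562, 16534, 17996 and 17797 in Rnlsmut grafts (-18.5%). The days did not overlap in either genotype, while the mitochondrial sums overlapped (-1.5% and 4.2%). Of 78 nuclear members that passed the filter, 54 fell and 1 rose in WT grafts, where 10.2% of all 7858 genes fell, and 42 fell in Rnlsmut grafts, where 10.3% fell. Medians were -0.44 and -0.38, beside 0.03 and -0.00 over all genes. By complex, 23 and 17 of 37 members of complex I fell in WT and Rnlsmut grafts, 5 and 4 of 8 of complex III, 11 and 9 of 12 of complex IV and 15 and 12 of 17 of complex V, but none of the 4 of complex II.

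Atp5k was at 446, 359.7, 396 and 379 CPM in CD4 T cells of WT grafts at day 10 and at 189, 202, 242 and 172 at day 17 (log2 fold change -1.13 ± 0.11, edgeR adjusted p = 3e-07). Its level in Rnlsmut grafts was 336, 283, 273 and 294 at day 10 and 278, 274, 272 and 288 at day 17 (-0.18 ± 0.11, edgeR adjusted p = 0.25). Only the WT grafts separated by day. The day change differed between the genotypes by 0.95 ± 0.16 on the log2 scale (edgeR adjusted p = 0.0012). Cox4i1, the common form of Cox4, was at 709.7, 725, 675 and 673 in WT grafts at day 10 and at 522, 478, 474 and 509 at day 17 (-0.65 ± 0.09, edgeR adjusted p = 2.6e-05), and it fell by 0.39 ± 0.09 in Rnlsmut grafts, without overlap in either. In Rnlsmut grafts, the smallest p-values belonged to Atp5mpl, Atp5c1, Atp5o, Cox5a and Atp5d, with log2 fold changes of -0.53 to -0.56.

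Sdha went the other way in CD4 T cells. It was at 30.5, 49.1, 37.5 and 57.9 CPM in WT grafts at day 10 and at 82.8, 61.9, 74.1 and 94.4 at day 17 (log2 fold change 0.67 ± 0.20, edgeR adjusted p = 0.020), without overlap. In Rnlsmut grafts it was at 49.5, 55.6, 60.9 and 43.6 at day 10 and at 76.3, 64.2, 52.0 and 41.8 at day 17, which overlapped (0.17 ± 0.20). Over all CD45+ cells it rose in Rnlsmut grafts (0.33 ± 0.12, edgeR adjusted p = 0.032).

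As in macrophages, the deposited clusters of CD4 T cells changed places. Cluster 0 held 61.8% and 54.3% of CD4 T cells in WT and Rnlsmut grafts at day 10 and 8.16% and 6.39% at day 17, and cluster 8 went from 4.54% and 5.19% to 74.5% and 69.8%. Cluster 8 had a nuclear sum of 15306 to 17368 (group means) and cluster 0 one of 21797 to 25879. Within cluster 0 the nuclear sum was 8.88% higher at day 17 in WT grafts, with overlap. In Rnlsmut grafts it was 11.6% higher without overlap (21157 to 22470 at day 10, 22927 to 25724 at day 17). Each genotype had 2 grafts of cluster 0 at day 17. Within cluster 8 the nuclear sum was 8.48% higher in WT grafts without overlap (15546 to 16918 in 3 grafts at day 10, 16966 to 18499 at day 17). In Rnlsmut grafts it was 5.37% higher with overlap. A fit of cluster 8 alone called 0 of 72 nuclear members in either genotype by edgeR (5 and 2 at an unadjusted p under 0.05), with medians of 0.16 and 0.06, where 0.772% (WT) and 0.832% (Rnlsmut) of 3366 genes fell. Cluster 8 had 71 WT and 100 Rnlsmut cells at day 10, which limits what this fit can call. Cluster 7 gave the opposite sign to clusters 0 and 8. It differed by -15.4% in Rnlsmut grafts without overlap and by -21.4% in WT grafts, from 1 graft at day 17. Cluster 22 differed by -7.17% in Rnlsmut grafts with overlap, from 2 grafts at day 17, and no WT graft had 10 of its cells at day 17. Macrophage transcripts in the CD4 T cells also moved: the summed macrophage markers were at 18.5 to 20.2 CPM in WT and 10.1 to 13.6 in Rnlsmut grafts at day 10, and at 27.6 to 45.4 and 108 to 130.1 at day 17. Their part in the result was not tested.

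CD8 T cells changed less. The nuclear sum was 20709, 20392, 20798 and 20451 CPM in WT grafts at day 10 and 17487, 18769, 18735 and 18257 at day 17 (-11.1%), and 20611, 19369, 20785 and 19623 against 18547, 18159, 18168 and 19020 in Rnlsmut grafts (-8.1%). The days did not overlap. Of 78 nuclear members, 19 fell in WT grafts (6.33% of all genes) and 6 in Rnlsmut grafts (4.55%), where DESeq2 called 10, with medians of -0.26 and -0.17. Cox6a1 was at 190.3, 196, 209 and 224 in WT grafts at day 10 and at 115, 120.1, 82.6 and 159.8 at day 17 (log2 fold change -0.94 ± 0.16, edgeR adjusted p = 0.00024). Its Rnlsmut grafts at both days, between 144 and 188, lay below all WT grafts of day 10 and overlapped with each other. The 6 that fell in Rnlsmut grafts included Cox7a2l, known for joining complexes III and IV, with Cox5a, Uqcrq, Atp5c1 and Uqcrh. Within cluster 3, the nuclear sum was 9.23% and 7.40% lower at day 17 in WT and Rnlsmut grafts without overlap, and a fit of that cluster called 5 of 77 lower in WT grafts (3.91% of 4991 genes) and 0 in Rnlsmut grafts (11 at an unadjusted p under 0.05, and 2.54% of genes fell).

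NK cells had no nuclear calls by day. Their nuclear sum was 15891, 14274, 17870 and 16358 CPM in WT grafts at day 10 and 16659, 15580, 16186 and 19757 at day 17, and 16228, 15798, 17258 and 16235 against 15960, 16118, 17445 and 18853 in Rnlsmut grafts. The days overlapped in both. None of the 72 nuclear members that passed the filter was called by edgeR in WT grafts (4.90% of all 3263 genes fell) or in Rnlsmut grafts (1.10%). DESeq2 called 0 as well, and at an unadjusted p under 0.05 edgeR had 4 and 5. The medians were 0.01 and 0.05. NK cells were few at day 17, from 13 cells in 1 WT graft to 79 in another, and whether their change differed from that of the other types was not tested.

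Monocytes and DC had fewer nuclear calls than macrophages. In monocytes 9 of 79 nuclear members fell in WT grafts (1.78% of all genes), where DESeq2 called 20, and 8 in Rnlsmut grafts (1.92%), with medians of -0.53 in both. Cox5a was at 1068, 1224, 1069.6 and 1223 CPM in monocytes of WT grafts at day 10 and at 539, 826 and 501 in the 3 grafts with 10 or more cells at day 17 (log2 fold change -1.02 ± 0.23, edgeR adjusted p = 0.022). In Rnlsmut grafts it was at 887, 1125, 1366 and 1001 at day 10 and at 790.2, 700.0, 468 and 487 at day 17 (-0.98 ± 0.22, edgeR adjusted p = 0.018). Neither genotype overlapped between days. The nuclear sum of monocytes was 24.7% lower in WT grafts without overlap and 25.3% lower in Rnlsmut grafts with overlap. Monocytes changed clusters as well: cluster 1 held 83.8% and 76.7% of them in WT and Rnlsmut grafts at day 10 and 41.7% and 45.8% at day 17, and cluster 14 held the rest. At day 10 the nuclear sum averaged 32017 (WT) and 30287 (Rnlsmut) in cluster 1 and 18348 and 17982 in cluster 14. Within cluster 1 it was 20.3% lower at day 17 in WT grafts without overlap, from 2 grafts at day 17. In Rnlsmut grafts it was 12.5% lower with overlap, from 3 grafts at day 17. Within cluster 14 it was 17.4% lower in Rnlsmut grafts without overlap, and 15.9% lower in WT grafts, from 1 graft at day 17. The part of the shift between clusters was not tested.

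In DC, 16 of 78 nuclear members fell in WT grafts (4.77% of all genes) and 12 in Rnlsmut grafts (7.05%), with medians of -0.38 and -0.34. Ndufa12 was at 90.5, 122, 121 and 119 CPM in DC of WT grafts at day 10 and at 44.8, 40.3, 46.0 and 57.0 at day 17 (log2 fold change -1.28 ± 0.20, edgeR adjusted p = 0.0005). All 4 grafts of day 17 lay below those of day 10. In Rnlsmut grafts the members that fell in DC included Cox5a (-0.82 ± 0.23, edgeR adjusted p = 0.023). DC of cluster 19 made up 22.3% and 18.6% of DC in WT and Rnlsmut grafts at day 10 and 63.1% and 58.9% at day 17, while cluster 17 went from 43.4% and 39.3% to 17.1% and 13.1%. Within cluster 19 the nuclear sum was 35.2% and 29.7% lower at day 17 without overlap, from 2 WT grafts at day 17.

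In Treg, 10 of 63 nuclear members fell in WT grafts (4.59% of all genes) and 0 in Rnlsmut grafts by edgeR (3.69%), where 6 had an unadjusted p under 0.05 and DESeq2 called 0, with medians of -0.50 and -0.05. The Treg nuclear sum was 20998, 23784, 22732 and 23050 in WT grafts at day 10 and 13885, 17754 and 16296 at day 17, and 18660, 21137, 20192 and 19269 against 19420, 20009 and 17701 in Rnlsmut grafts. Only the WT days were apart.

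Ndufa4, which sits with complex IV despite its name, had a day change in Treg that differed between the genotypes. It was at 417, 592, 509 and 450.1 CPM in WT grafts at day 10 and at 162, 267 and 236 at day 17 (log2 fold change -1.13 ± 0.23, edgeR adjusted p = 0.003). In Rnlsmut grafts it was at 283, 325, 306 and 336 at day 10 and at 451, 509.5 and 397 at day 17 (0.46 ± 0.21, edgeR adjusted p = 0.21). The day change differed between genotypes by 1.59 ± 0.32 (edgeR adjusted p = 0.0094), and all 4 groups were apart except WT day 10 from Rnlsmut day 17. Within a day, no nuclear member passed between genotypes in Treg (lowest edgeR adjusted p = 0.21 at day 10 and 0.13 at day 17). Atp5k in Treg was at 343, 321, 420.0 and 378 in WT grafts at day 10 and at 231, 159 and 138 at day 17, and at 209, 325, 258 and 314 against 358, 314 and 315 in Rnlsmut grafts. Its day change differed by 1.40 ± 0.35 (edgeR adjusted p = 0.043).

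Over the 7 tested types together, 175 nuclear gene and type pairs of 527 fell and 1 rose from day 10 to day 17 in WT grafts, where 7.23% of all 42954 pairs tested fell and 14.2% passed in either direction. In Rnlsmut grafts 138 fell and none rose, where 8.79% fell and 17.9% passed. Cox5a fell in 4 types of WT and 5 of Rnlsmut grafts, Uqcrq in 5 and 4, Atp5k in 6 and 1, Ndufb1-ps in 5 and 2, and Cox5b, Cox7c and Cox8a in 4 and 3. Among the nuclear members measured in more than 2 types, Sdha, Sdhc and Ndufs1 fell in none. In the sum over all CD45+ cells, 62 of 81 nuclear members fell in WT grafts (17.5% of all genes) and 49 fell and 1 rose in Rnlsmut grafts (22.4%), with macrophages at 17.0% and 15.7% of cells at day 10 and 53.9% and 61.8% at day 17. Cycling transcripts were lower over the same days: Mki67 and Top2a together were 71.7% lower in WT grafts without overlap and 47.9% lower in Rnlsmut grafts with overlap over all CD45+ cells, and 35.7% and 39.3% lower with overlap in macrophages. Their part in the result was not tested.

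**Figure D4:**
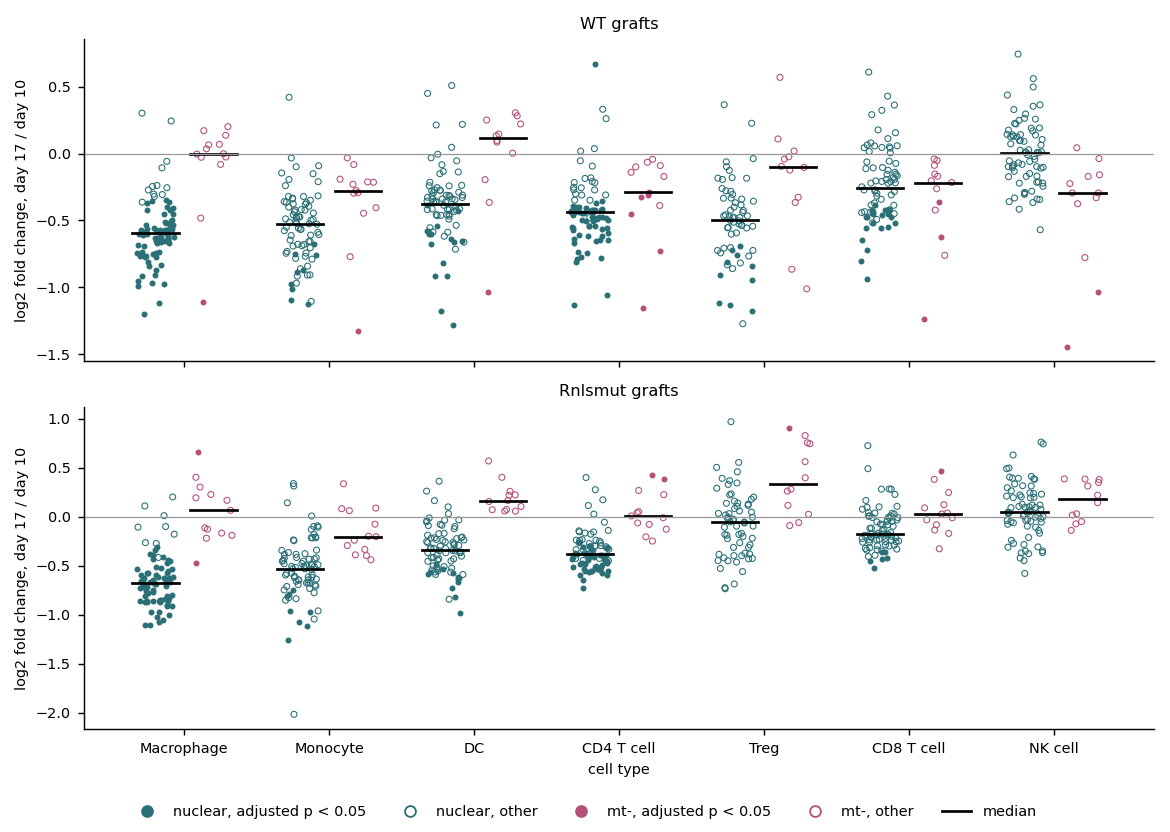
Log2 fold change from day 10 to day 17 of every respiratory chain member that passed the filter, by cell type, in WT (top) and Rnlsmut grafts (bottom). Each point is 1 gene, teal for nuclear and pink for mt members, filled where the edgeR adjusted p was below 0.05, and black lines are medians. The nuclear medians of macrophages are -0.59 and -0.67 and those of NK cells 0.01 and 0.05.

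The second comparison asked whether immune cells of Rnlsmut grafts differed from those of WT grafts at the same day. Over the 7 tested types, edgeR called no nuclear member at day 10, where 0.105% of all 42954 pairs passed in either direction, and none at day 17, where 0.154% passed. DESeq2 called 3 and 1. At an unadjusted p under 0.05, the counts at day 10 were 4 in macrophages, 18 in CD4 T cells, 5 in CD8 T cells, 1 in monocytes, 0 in NK cells, 3 in DC and 7 in Treg, and at day 17 they were 6, 5, 8, 2, 1, 4 and 9. The nuclear sum of CD4 T cells was 7.0% lower in Rnlsmut than in WT grafts at day 10 without overlap, and 3.4% lower with overlap at day 17. Over all CD45+ cells it was 6.9% lower at day 10 without overlap (24490, 23876, 25324 and 24369 against 25360, 26950, 26285 and 26763) and 4.2% lower at day 17 with overlap.

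The mt members passed 5 times at day 10, all lower in Rnlsmut grafts, where 0.105% of all pairs passed. DESeq2 called 10 at day 10, and leaving out 1 graft in turn gave 2 to 7. At day 17 edgeR and DESeq2 called 0 (0 to 5 members per type had an unadjusted p under 0.05). Of the 5, 3 were mt-Atp8, the small membrane subunit 8 of complex V, in macrophages, CD4 T cells and CD8 T cells, and the others were mt-Nd2 and mt-Nd4l in CD4 T cells. In CD4 T cells mt-Atp8 was at 329.7, 321, 329 and 354 CPM in WT grafts at day 10, at 217, 187, 206 and 193 in Rnlsmut grafts at day 10, and at 180.2, 144, 174 and 158 (WT) and 233, 238, 202 and 144 (Rnlsmut) at day 17. The WT grafts of day 10 were above the other 12 grafts, with a genotype difference of -0.77 ± 0.11 at day 10 (edgeR adjusted p = 0.00077). Its partner on the same messenger RNA, mt-Atp6, was at 1957, 1976, 1824 and 1894 in WT grafts at day 10 and at 2197, 2055, 2029 and 1945 in Rnlsmut grafts, and at 2076, 1823, 1968 and 2430.4 and 2221, 2132, 2048 and 1846 at day 17. mt-Atp6 overlapped in all of these, although the 2 reading frames share the 43 bases in capitals above.

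That pattern was one of the WT day 10 library. In 6 of 7 tested types (all but Treg), the lowest WT graft of day 10 had more mt-Atp8 than the highest of the other grafts, and the WT day 10 mean was 1.75 to 2.15 times the mean of the other grafts over the 7 types. The same held for Atp5k in 5 of 7 types (not NK cells or Treg) and for mt-Nd4l in 2 (CD4 and CD8 T cells). The other 11 mt members showed it in none of 7, and mt-Atp6 had ratios of 0.927 to 1.08. Among nuclear members only Atp5k, Ndufa4, Cox5a and Uqcrq were examined for this pattern over the types. Ndufa4, Cox5a and Uqcrq showed it in 0 of 7. Ndufa12 in macrophages and Cox6a1 in CD8 T cells, whose values are given above, also had all WT grafts of day 10 on top. How many of all genes do so was not counted. In CD4 T cells mt-Nd4l was at 416, 440.1, 435 and 427 in WT grafts at day 10 and between 244 and 359 in the other 12. Its partner mt-Nd4 was at 945, 932, 949.9 and 1039 in WT grafts at day 10 and between 818 and 1146 in the others, with overlap. Without mt-Atp8 and mt-Nd4l, 1 of the 5 mt calls at day 10 was left, mt-Nd2 in CD4 T cells (-0.52 ± 0.10, edgeR adjusted p = 0.022). The library and the group cannot be told apart.

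**Figure D5:**
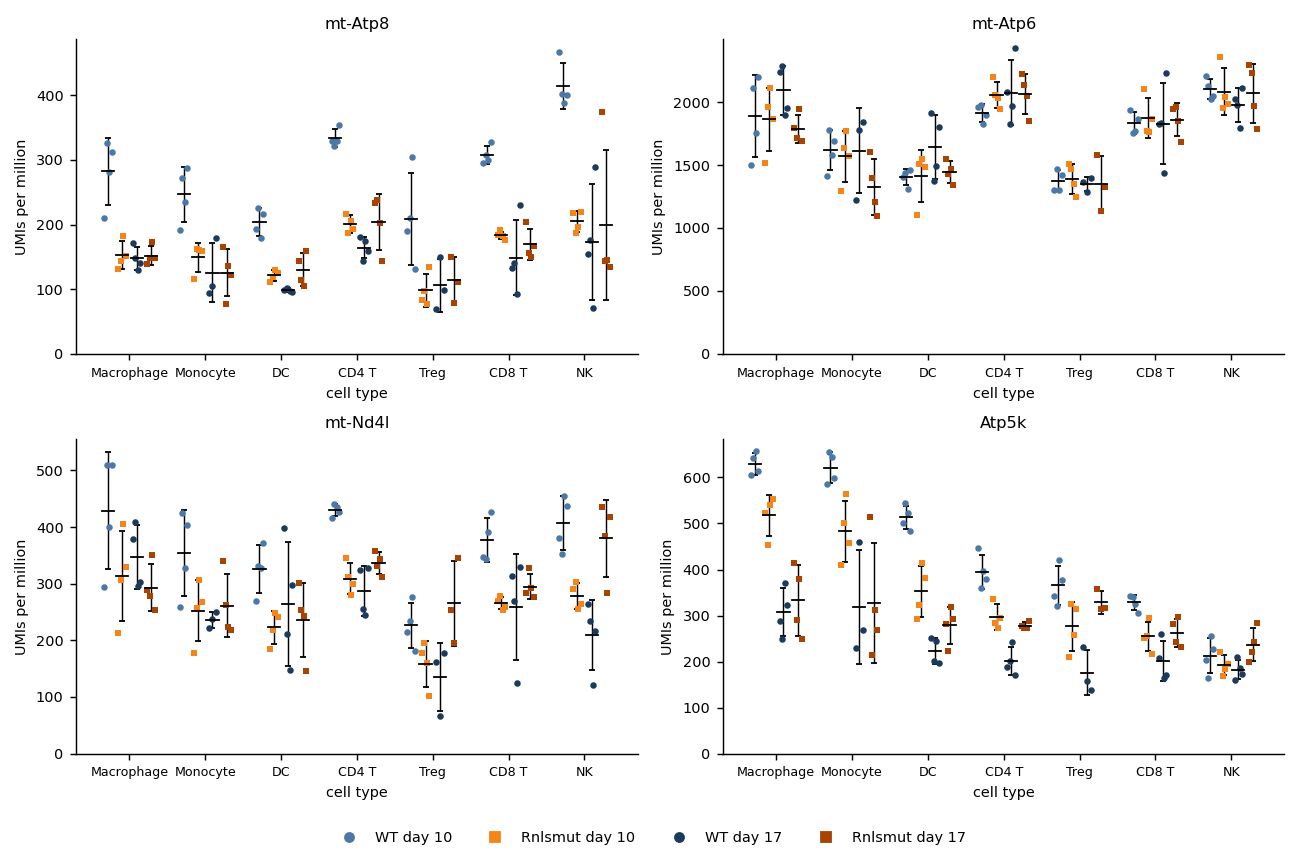
Levels of mt-Atp8, mt-Atp6, mt-Nd4l and Atp5k in CPM, by cell type. Each point is 1 graft, bars are the mean and SD of a group, blue circles are WT and orange squares Rnlsmut grafts, and the dark shade is day 17. The WT grafts of day 10 lie above all others for mt-Atp8 in 6 of 7 types and for Atp5k in 5 of 7, but not for mt-Atp6.

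The WT day 10 library is also 1 side of the day comparison of WT grafts, and its part in that comparison was not tested. Of 88 mt gene and type pairs, 14 fell in WT grafts from day 10 to day 17, where 7.23% of all pairs fell, and 9 of these were mt-Atp8 or mt-Nd4l. The other 5 made a share close to or below that of all pairs. mt-Atp8 fell in 6 types, by 1.03 (DC) to 1.44 (NK cells) on the log2 scale. In NK cells mt-Nd4l was at 380.2, 353, 455 and 438 CPM in WT grafts at day 10 and at 263, 235, 121 and 217 at day 17 (log2 fold change -1.03 ± 0.19, edgeR adjusted p = 0.0012), against 291, 303, 255 and 264 and 436, 385, 283 and 418 in Rnlsmut grafts. For mt-Nd4l in NK cells, the WT grafts of day 10 thus overlapped with the Rnlsmut grafts of day 17. The remaining 5 were mt-Nd1, mt-Nd2, mt-Nd3 and mt-Co3 in CD4 T cells and mt-Co3 in CD8 T cells, with falls of 0.29 to 0.45. In Rnlsmut grafts 5 pairs rose and 1 fell, where 9.13% of all pairs rose and 8.79% fell, so neither share was above that of all pairs. mt-Nd3 in macrophages and CD4 T cells, mt-Nd5 in CD4 and CD8 T cells and mt-Nd1 in Treg rose, by 0.38 to 0.91, and mt-Cytb in macrophages fell. Without TMM scaling 9 rose and 0 fell.

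The third comparison tested whether the genotype difference changed between days. Over the 7 types 8 gene and type pairs of 5 members passed, where 0.310% of all 42954 pairs passed, and all 8 were more positive at day 17. They were Atp5k in CD4 T cells and Treg and Ndufa4 in Treg, given above, mt-Atp8 in CD4 T cells (1.14 ± 0.18, edgeR adjusted p = 0.00053) and CD8 T cells (1.07 ± 0.23, 0.019), mt-Nd4l in CD4 T cells (0.78 ± 0.16, 0.013) and NK cells (1.42 ± 0.28, 0.011), and mt-Nd3 in CD4 T cells (0.88 ± 0.21, 0.047). All 4 libraries enter each of these differences, and the part of any single library was not tested. mt-Nd3 in CD4 T cells was at 168, 171, 182 and 163 CPM in WT and 112, 143, 115 and 143 in Rnlsmut grafts at day 10, and at 146, 124, 122 and 165 against 233, 164, 152 and 167 at day 17. The genotypes were apart at day 10 and overlapped at day 17.

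The other genes of oxidative metabolism were read from the same fits for a list of 87 genes outside the name rule. In macrophages 80 were tested: 19 fell and 2 rose from day 10 to day 17 in WT grafts (median -0.25) and 31 fell and 4 rose in Rnlsmut grafts (median -0.30). Of all genes in macrophages, 13.1% fell and 12% rose in WT grafts and 21.4% fell and 20.7% rose in Rnlsmut grafts. Of 5 electron carriers and partners, 3 fell in WT grafts (Cycs, which is cytochrome c, Cyc1, which is the cytochrome c1 of complex III, and Etfb) and 4 in Rnlsmut grafts (also Etfa). In the TCA cycle, 4 of 13 enzymes fell and 1 rose (Suclg2) in WT grafts, and 7 fell and 2 rose (Suclg2 and Ogdh) in Rnlsmut grafts. Assembly factors of complex I fell in 2 and 6 of 14 and those of complex IV in 6 and 7 of 17. Of 8 genes for the replication and expression of mitochondrial DNA, 1 (Slirp) and 2 (Slirp and Ssbp1) fell, with medians of 0.07 and 0.01. Among 9 regulators Hif1a fell in both genotypes, and in Rnlsmut grafts Esrra fell while Nrf1 and Pprc1 rose. In CD4 T cells 8 of 69 fell and 2 rose in WT grafts, and 8 fell and 3 rose in Rnlsmut grafts, with medians of -0.25 and -0.20. Of all genes in CD4 T cells, 10.2% fell and 10.6% rose in WT grafts and 10.3% fell and 12.1% rose in Rnlsmut grafts, so the share of the list that fell was near that of all genes.

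AA467197, a paralog of Ndufa4 known to replace it in complex IV of inflamed cells, had the largest fitted change of these 80 genes in macrophages in both genotypes. It was at 169, 176, 157 and 95.8 CPM in WT grafts at day 10 and at 20.3, 12.7, 37.3 and 29.6 at day 17 (log2 fold change -2.64 ± 0.28, edgeR adjusted p = 1.2e-05). In Rnlsmut grafts it was at 225, 149.5, 259 and 322 at day 10 and at 29.5, 18.4, 19.1 and 19.6 at day 17 (-3.56 ± 0.28, edgeR adjusted p = 4.3e-07). No graft of day 17 came near those of day 10 in either genotype. Ndufa4 itself fell by 0.57 ± 0.16 and 0.87 ± 0.16 in the same macrophages.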

How the data were processed

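Living CD45+ cells were profiled with a droplet kit that tags the 3′ ends of transcripts with unique molecular identifiers (UMIs), and hashtag antibodies marked the graft of each cell. The authors deposited 1 table of raw counts (whole UMI counts per gene and cell, not normalized) with a table of cell annotations (library, hashtag, cluster, cell type). Their processing notes name Cell Ranger and mm10, and versions are not given in the sources used here. All deposited cells were kept. They had at least 1001 UMIs, and no doublet caller was run, so leaving out the 5% of cells with the most UMIs (1124 cells) served as the alternative.

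Counts were summed per graft and cell type for grafts with at least 10 cells. A type was tested where at least 3 grafts in each of the 4 groups had them, which left 7 of 12 types beside all CD45+ cells. edgeR 4.0.16 (R 4.3.3, limma 3.58.1) was run with TMM scaling, filterByExpr and its quasi-likelihood test on all genes with 4 group means, and Benjamini-Hochberg adjustment over all genes tested in a type. As alternatives, the counts were fitted in DESeq2 1.42.0 (own size factors), and edgeR was run with no TMM scaling, no filter, a minimum of 20 cells, a hashtag number block and leaving out each graft. The fits within 1 cluster, and the count of mt genes without mt-Atp8 and mt-Nd4l, were added after seeing the data. The SE given with an edgeR log2 fold change is its absolute value divided by the square root of the quasi-likelihood F statistic. Sums over members carry no test. The scripts were tested on simulated data. Tables and figures used Python 3.11.15 with pandas 2.3.3, NumPy 2.4.6, SciPy 1.17.1 and matplotlib 3.10.9.

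The members and gene lists were chosen with earlier results of these data known. Genes named are all mt members, at most 5 called nuclear members per direction, type and contrast with the smallest p, the 3 most abundant nuclear members, the restricted subunit forms with their partners, and at most 2 called genes per direction of the other lists. Members that illustrate a complex or an exception (Uqcrq and Sdhb in macrophages, Sdhc, Sdhd, Ndufs1, mt partner genes), the other list genes beyond that number, and the 2 genes of cluster 5 were chosen after their values were seen. Promoters and mitochondrial genes come from RefSeq and the annotation on GRCm38. For an antisense or overlapping gene, strand use in counting is not given in the sources used here. The reads behind mt-Atp8 and mt-Nd4l may not separate from those of the genes they overlap, Ndufb1-ps is annotated as a noncoding gene, and the hashtag counts were not analysed here. 1 called member is not reported by name here.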

Additional observations from a re-analysis of the deposited data

Results flagged for a closer look

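The day change of 5 members differed between WT and Rnlsmut grafts by edgeR's interaction term, in 8 gene and type pairs and, for mt-Atp8, also in the sum over all CD45+ cells, which contains the others. In Treg, Ndufa4 differed by 1.59 on the log2 scale (adjusted p = 0.0094) and Atp5k by 1.40 (0.043), with 3 grafts per genotype at day 17. In CD4 T cells the differences were 0.95 for Atp5k (0.0012), 1.14 for mt-Atp8 (0.00053), 0.88 for mt-Nd3 (0.047) and 0.78 for mt-Nd4l (0.013). mt-Atp8 differed by 1.07 in CD8 T cells (0.019) and by 0.97 over all CD45+ cells (0.00045), and mt-Nd4l by 1.42 in NK cells (0.011). All of these were positive. The WT day 10 library stood above all other grafts for mt-Atp8 in 6 of 7 types and for Atp5k in 5 of 7. Its part in these differences was not tested.

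Single grafts lay far from the other 3 of their group in 4 cases, among 95 groups of 4 member values and 58 groups of 4 sums examined, where chance gives about 1 in 20. These were Ndufab1 in macrophages of WT day 17 graft 3 at 128 CPM, AA467197 in macrophages of Rnlsmut day 17 graft 1 at 29.5, mt-Nd4 in CD4 T cells of WT day 10 graft 4 at 1039, and Ndufa12 in DC of WT day 10 graft 1 at 90.5.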

How the results depend on the processing

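No called result changed direction. The nuclear sum over all CD45+ cells, Rnlsmut against WT at day 17, went from -4.22% to 0.207% without WT day 17 graft 3, and the Treg nuclear median of the day comparison in Rnlsmut grafts from -0.05 to 0.01 without TMM scaling. Over the 7 types, the 176 nuclear calls of the day comparison in WT grafts became 116 without TMM scaling (113 lower, 3 higher), and the 138 in Rnlsmut grafts became 109. The 14 mt calls in WT grafts became 9 without TMM scaling and 5 without mt-Atp8 and mt-Nd4l. The 6 mt calls in Rnlsmut grafts became 2 without the filter, and without TMM scaling they were 9 higher and 0 lower, against 5 and 1. DESeq2 called 3 nuclear and 10 mt members between genotypes at day 10, against 0 and 5, 1 nuclear member at day 17, against 0, and 13 interaction terms, against 8. Without mt-Atp8 and mt-Nd4l, 1 mt call was left at day 10. Without TMM scaling, the median of all genes in macrophages went from 0.03 to 0.21 in WT and from 0.02 to 0.15 in Rnlsmut grafts, and that of the nuclear members from -0.59 to -0.42 and from -0.67 to -0.54. The cause was not tested. For the 108 single results of named members, 2243 checks against an alternative kept their side of the threshold and 206 did not.

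Leaving out 1 graft at a time gave 117 to 215 nuclear calls for the day comparison in WT grafts and 106 to 169 in Rnlsmut grafts, 10 to 19 and 1 to 8 mt calls, 0 to 1 nuclear calls between genotypes at either day, 2 to 7 mt calls at day 10, 0 to 0 at day 17, and 4 to 9 interaction terms. The 117 came without WT day 17 graft 1, the 4 without Rnlsmut day 17 graft 1, and both single genotype calls without WT day 17 graft 3. The mt calls at day 10 were 2 without WT day 10 graft 3 or 4 or Rnlsmut day 10 graft 2 or 4, and 3 without WT day 10 graft 2 or Rnlsmut day 10 graft 3. The mt calls of the day comparison in Rnlsmut grafts were 1 without Rnlsmut day 17 graft 1 and 3 without Rnlsmut day 10 graft 1 or 2. The sums over all CD45+ cells moved over -27.4% to -20.8% (nuclear, WT by day), -25.2% to -18.8% (nuclear, Rnlsmut by day), -8.07% to -6.12% and -8.31% to 0.207% (nuclear, genotype at day 10 and day 17), 6.74% to 14.2% and 8.45% to 15.7% (mt by day), and -7.32% to -3.54% and -7.66% to -1.21% (mt, genotype).

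The hashtag numbers are shared by the groups, but same-numbered grafts correlated at -0.25 to 0.40 and were each other's best match in 2 of 8 cases, so they were not taken as pairs. With the hashtag number as a replicate block, the day comparison had 173 nuclear and 14 mt calls in WT and 136 and 6 in Rnlsmut grafts, the genotype comparison 0 nuclear calls at either day and 4 mt calls at day 10, and the interaction 6. Treg could not be tested at a minimum of 20 cells. Depth limits what NK cells and Treg can show: 3263 and 2331 genes passed the filter there, against 9331 in macrophages.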
